A study of Malus x robusta with 27 samples.

Results

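The transcriptome of whole flowers of the weakly fragrant progeny (WF) was compared between the late flowering stage (LS) and the early flowering stage (ES). WF is a single tree selected among the progeny of Malus robusta, a crabapple used as an apple rootstock. The comparison used 6 of the 27 libraries of the series, which were the 3 LS and the 3 ES libraries labelled as weakly fragrant flowers. ES flowers had petals that were opening and stamens that had not dehisced, whereas at LS the petals were fully open and the stamens had dehisced. The other libraries came from a strongly fragrant progeny tree (SF), from standard M. robusta (Mr) and from a balloon stage (EB) of each material, with 3 libraries in each of 9 groups. No treatment was applied, and all flowers were stored frozen before RNA extraction. The replicates of WF are flowers of 1 tree, so the p-values for WF alone measure the spread between samples of that tree. SF is also 1 tree, so the comparison of changes between WF and SF is between single trees. The number of Mr trees sampled is not given in the sources used here.

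In the apple family, a flower that has opened passes from petal expansion and anther maturation to pollen release, pollination and petal ageing. Petal expansion depends on enzymes that loosen cell walls, on channels for water and on sugar import, while anther opening and pollen growth depend on pectin-degrading enzymes and pollen coat proteins. Petal ageing is known from other species to involve ethylene signalling, transcription factors of the NAC and WRKY families, proteases, and the export of nutrients. Scent volatiles of crabapple flowers derive from fatty acids, from phenylalanine and from terpene precursors.

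The 6 libraries held 17966314 to 23537691 fragments on genes, as recovered from the deposited FPKM, the expression unit that divides fragments by gene length and sequencing depth. A gene of 1 kb with 3 fragments corresponded to an FPKM of 0.132 to 0.161, which covers counting error only. On the scale of log2(FPKM + 1), the root mean square SD between replicates was 0.396 in ES and 0.540 in LS. The LS libraries stood apart from each other. LS replicate 1 differed from the ES libraries by 1.08 to 1.14 (root mean square, log2), LS replicate 3 by 0.791 to 0.839, and LS replicate 2 by 0.724 to 0.961, while the ES libraries differed from each other by 0.514 to 0.619. On the component that held 56.0% of the variance, LS replicate 2 lay nearest to the ES libraries. Gene families used as markers were found in every library. They were Ole e 1-like proteins and profilins for pollen, and chlorophyll a/b-binding proteins and Rubisco small subunits for green tissue. T2 ribonucleases, which are not all of the pistil, and MADS-box factors were used for the pistil and floral organs. In bulk flowers, fewer cells of a type and less RNA per cell cannot be told apart. Rubisco small subunits summed to 2059.9, 2152 and 1889 FPKM in the ES libraries and to 448, 1941 and 733 in the LS libraries, so LS replicate 2 was at the level of ES. The chlorophyll a/b-binding proteins summed to 5345, 5858 and 4950 FPKM in ES and 3704, 5875 and 4636 in LS, with overlap. The part of this difference between LS flowers in the results was not tested.

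**Figure D1:**
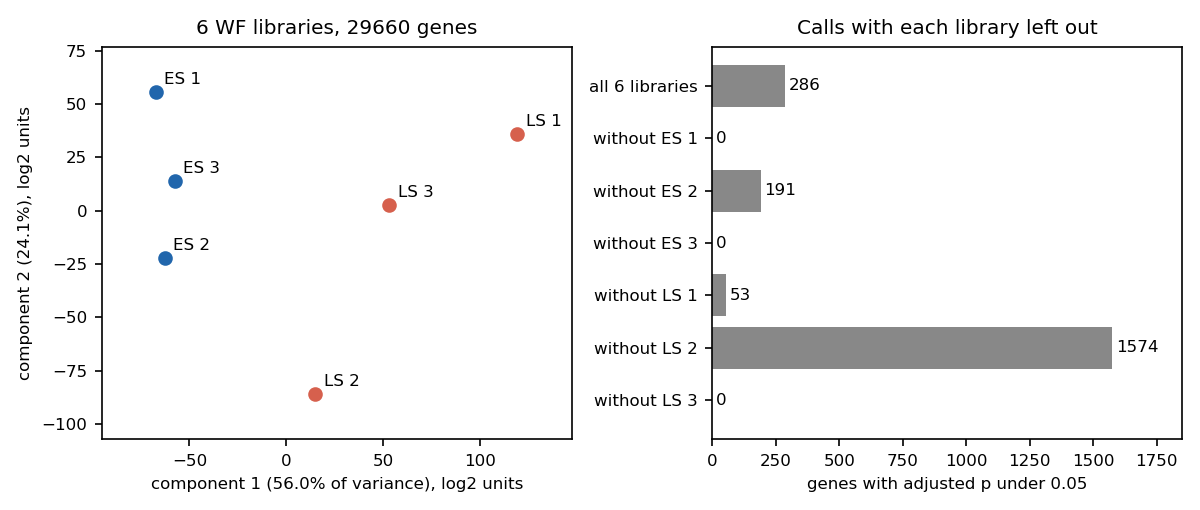
Left, positions of the 6 WF libraries on the first 2 components of log2(FPKM + 1) over 29660 genes (log2 units), ES in blue and LS in red. Right, number of genes with an adjusted p under 0.05 with all 6 libraries (286) and with each library left out (0 to 1574).

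Of 29660 genes tested, 286 were differentially expressed between LS and ES (0.964% of those tested, limma with Benjamini-Hochberg adjustment, adjusted p under 0.05). Expression rose from ES to LS for 117 of them (0.394%) and fell for 169 (0.57%), with a median absolute log2 difference of 1.88. In all 286 genes the 3 LS libraries lay entirely above or entirely below the 3 ES libraries. Across all genes tested, 4197 (14.2%) lay entirely above at LS and 4842 (16.3%) entirely below, and the median log2 difference was -0.0056. The smallest adjusted p was 0.0191, and 6873 genes had an unadjusted p under 0.05. The number of calls rested on single libraries. Without LS replicate 2 it was 1574 and included all 286 genes, without LS replicate 1 it was 53, and without ES replicate 2 it was 191. Without ES replicate 1, ES replicate 3 or LS replicate 3 no gene was called (limma), with 4563, 4893 and 4816 genes at an unadjusted p under 0.05. All 286 genes kept their direction in each of these fits. No domain description was given for 75 of the 286 genes.

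Among the rises, the largest was that of HF28283 (chromosome 11, 40098684 to 40100003 of the apple HFTH1 genome). It codes for a protein with the 2 domains of xylanase inhibitors, a fold shared with plant aspartyl proteases. Its expression was 0.803, 1.27 and 1.79 FPKM in the ES libraries and 1598, 208 and 736 in the LS libraries. The log2 difference was 8.12 ± 0.74 (SE, n = 3 per group, adjusted p = 0.0288), and the LS libraries differed among themselves by several fold. HF43548 (chromosome 11, 4429832 to 4430173) has no described domain and went from 35.3, 16.5 and 28.7 FPKM to 1212, 315 and 695 (4.60 ± 0.55, adjusted p = 0.0381). HF40221 (chromosome 3, 6814169 to 6815651), a UDP-glycosyltransferase of the kind that attaches sugars to small molecules, was at 0.667, 0.758 and 0.962 FPKM in ES and 91.5, 25.4 and 23.02 in LS (4.44 ± 0.54, adjusted p = 0.0397). In these 3 genes LS replicate 1 was the highest library.

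HF27430 (chromosome 2, 14318162 to 14320252) codes for a heat shock factor, a transcription factor of stress responses. It rose from 2.25, 2.98 and 1.39 FPKM to 41.5, 85.8 and 74.3, a log2 difference of 4.38 ± 0.34 (adjusted p = 0.0223), with LS replicate 2 the highest. HF36431 (chromosome 12, 2609196 to 2611425), a sugar transporter, was below 1 FPKM at ES (0.292, 0.435 and 0.743) and reached 35.7, 16.4 and 29.4 FPKM at LS (4.18 ± 0.32, adjusted p = 0.0223). HF16627 (chromosome 7, 3911362 to 3914584), with no described domain, had the smallest SE of the 10 rises. Its values were 1.21, 1.17 and 1.902 FPKM at ES and 50.1, 34.99 and 41.8 at LS (4.15 ± 0.21, adjusted p = 0.0191). HF16607 on the same chromosome (chromosome 7, 4090959 to 4091348) carries a VQ motif, which marks partner proteins of WRKY factors, and went from 1.47, 1.35 and 7.28 to 65.7, 51.9 and 57.7 FPKM (adjusted p = 0.0423). The remaining large rises were of enzymes that modify small molecules. The cytochromes P450 HF10836 and HF23973 went from 7.99, 11.9 and 8.89 to 256, 94.2 and 150.1 FPKM and from 15.96, 14.3 and 8.85 to 281, 95.7 and 269 FPKM (adjusted p = 0.0288 and 0.0418). The glutathione S-transferase HF27822 went from 2.09, 4.39 and 3.06 to 39.04, 87.2 and 45.7 FPKM (adjusted p = 0.0288). At EB the 10 genes lay between 0.168 and 29.5 FPKM, each below its own LS libraries.

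The largest fall was that of HF20947 (chromosome 8, 371553 to 374537), which codes for an AMP-binding enzyme of the family that activates acids as their CoA esters. It went from 279, 308 and 350.1 FPKM at ES to 0.528, 8.57 and 5.36 at LS, a log2 difference of -6.11 ± 0.68 (adjusted p = 0.0362). HF15782 (chromosome 4, 26771982 to 26777052), a homeobox factor of the KNOX family known for its role in meristems, went from 66.5, 119 and 151 to 0.0967, 0.4704 and 1.51 FPKM (-6.07 ± 0.43, adjusted p = 0.0206). Both genes were higher still in the EB libraries, at 578, 457 and 851 FPKM and 136, 152 and 303 FPKM. A newly assembled gene on chromosome 8, 14780551 to 14783533, which carries the hydrophobic seed protein domain found in relatives of lipid transfer proteins, went from 182, 142 and 164 to 2.66, 11.6 and 1.57 FPKM (-5.05 ± 0.60, adjusted p = 0.0373). Here and in HF20947, LS replicate 2 kept the highest level of the LS libraries.

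Pectate lyases, which cleave the pectin of cell walls, supplied 2 of the 10 largest falls. HF10919 (chromosome 5, 30954220 to 30958919) went from 77.3, 45.1 and 38.9 to 0.991, 3.03 and 0.961 FPKM (-4.39 ± 0.40, adjusted p = 0.0288). HF29888 (chromosome 10, 27462988 to 27467648) went from 78.9, 47.8 and 55.1 to 4.74, 3.03 and 3.77 FPKM (-3.65 ± 0.24, adjusted p = 0.0191). HF33514 (chromosome 9, 5769405 to 5770336), an allene oxide cyclase of the jasmonate pathway, fell from 16.2, 34.2 and 47.1 FPKM to 0.173, 0.505 and 2.52 FPKM (adjusted p = 0.0484). The RNA-binding protein HF25053 fell from 33.6, 34.1 and 17.99 to 0.297, 1.04 and 0.478 FPKM (adjusted p = 0.0223). The remaining 3 genes, HF07729, HF18629 and HF30699, have no described domain. They were at 11.1 to 35.6 FPKM in the ES libraries and at 0 to 1.26 in the LS libraries. In every one of the 10 falls the groups did not overlap, as the rule that chose them required.

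**Figure D2:**
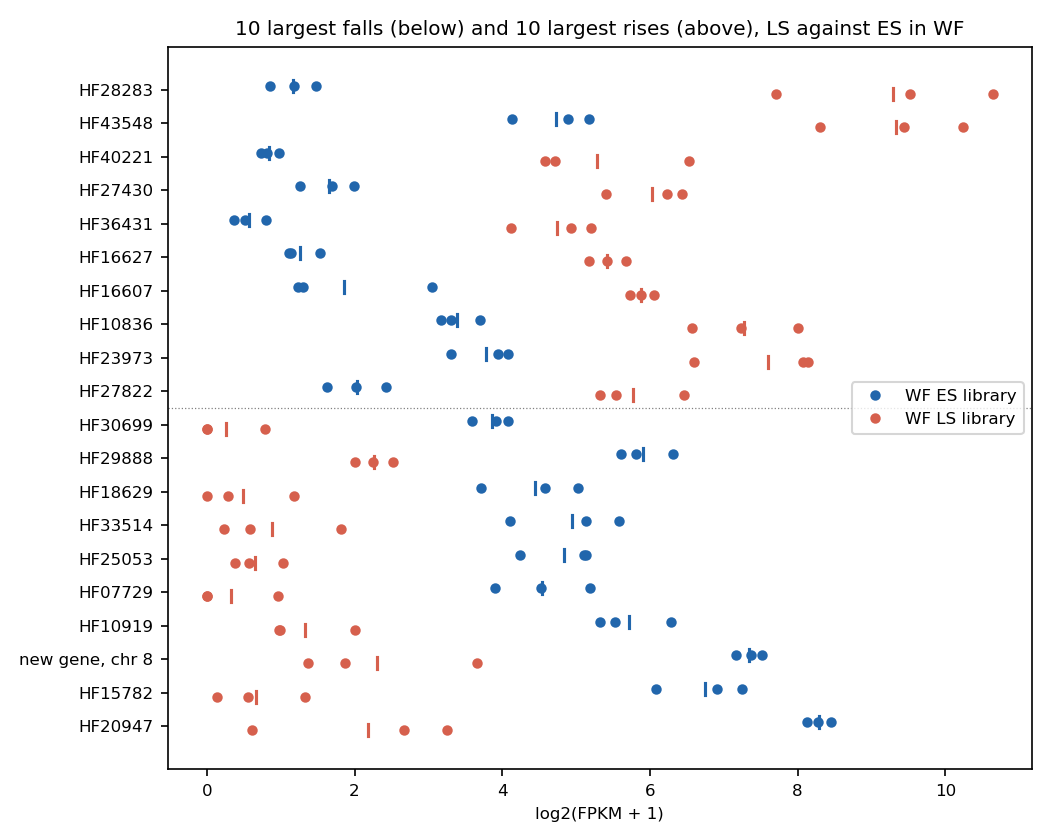
Expression as log2(FPKM + 1) of the 10 genes with the largest rises and the 10 with the largest falls, each point 1 library (ES blue, LS red) and each bar the group mean. The widest gap is that of HF28283, at 0.803 to 1.79 FPKM in ES and 208 to 1598 in LS.

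Gene families were taken from the domain descriptions. Over all genes tested, 0.964% were called and 6873 of 29660 had an unadjusted p under 0.05. Family counts are to be read against these shares. A family without a call does not thereby differ from all genes. Of the 61 families, 30 held at least 1 differentially expressed gene, and none of the other 31 held one with voom on the recovered fragments. No family changed the sign of its median log2 difference when libraries were scaled by their total fragments. Among cell wall enzymes the pectate lyases had 0 rises (0.394% of all genes tested) and 3 falls (0.57%) in 25 genes. Of these, 0 lay entirely above the ES libraries (14.2% of all genes tested) and 7 entirely below (28% against 16.3%). The third gene that fell was HF35179, at 15.9, 8.35 and 15.5 FPKM in ES and 1.63, 1.94 and 2.48 in LS (adjusted p = 0.0439). The median log2 difference of the family was -0.48, and without LS replicate 2 the falls numbered 5 (3.26% of all genes tested). Expansins, which loosen walls during growth, had 1 fall in 36 genes. That gene, HF24827, was at 68.8, 41.2 and 58.6 FPKM in ES and 4.08, 7.13 and 8.65 in LS (adjusted p = 0.0318). Of the 36 expansins, 7 lay entirely above the ES libraries (19.4%, against 14.2% of all genes tested) and 12 entirely below (33.3%, against 16.3%). An unadjusted p under 0.05 was found in 20 of the 36, against 6873 of the 29660 genes tested. Xyloglucan endotransglucosylases, which cut and rejoin the hemicellulose xyloglucan, moved both ways. HF29041 fell from 32.6, 27.4 and 36.2 to 1.19, 4.698 and 0.709 FPKM (adjusted p = 0.0447) and HF06112 rose from 0.101, 0.3503 and 0.244 to 2.08, 3.72 and 2.58 FPKM (adjusted p = 0.0373). No pectin methylesterase (47 tested) and no polygalacturonase (44 tested) was called, where 0.964% of all genes tested were called. An unadjusted p under 0.05 was found in 9 and 8 of them, against 6873 of the 29660 genes tested.

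Pollen Ole e 1-like proteins, which are secreted by pollen and other tissues, had no call (limma) in 27 genes tested. Over all genes tested, 0.964% were called. Unadjusted p was under 0.05 in 7 of the 27 genes, against 6873 of the 29660 genes tested. Of the 27, 0 lay entirely above the ES libraries (14.2% of all genes tested) and 8 entirely below (29.6%, against 16.3%). Their summed expression was 6779, 5654 and 5533 FPKM in the ES libraries and 1335, 2041 and 2020.3 in the LS libraries, and the groups did not overlap. EB libraries held still more, with 9993, 9205 and 9522 FPKM. The most abundant member, HF10388, was at 1675, 1519 and 1401 FPKM in ES and 6.17, 208 and 23.7 in LS, and its log2 difference of -5.52 ± 1.20 had an adjusted p of 0.08503. Without LS replicate 2, its adjusted p was 0.0225, in a range of 0.000528 to 0.245 over all alternatives. Profilins, actin-binding proteins that are abundant in pollen, had 4 of 9 members entirely below ES (16.3% of all genes tested), 2 at an unadjusted p under 0.05 and no call. T2 ribonucleases, the family of the style self-incompatibility enzymes, had neither a call, nor an unadjusted p under 0.05, nor a member without overlap among 6 tested. Their sums were 266, 162 and 224 FPKM in ES and 230.3, 163 and 211 in LS. The most abundant member, HF36240, also carries a cytochrome b561 domain and was at 91.8, 66.4 and 73.4 FPKM in ES and 111, 68.4 and 86.0 in LS. These sums therefore do not measure the style enzymes alone. MADS-box factors, which set floral organ identity, had no call in 73 genes (0.964% of all genes tested). Of the 73, 10 had an unadjusted p under 0.05, against 6873 of the 29660 genes tested.

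Families that act on lipids of the cell surface held rises and falls. GDSL lipases had 2 rises (0.394% of all genes tested) and 2 falls (0.57%) in 66 genes. Of these, 6 lay entirely above the ES libraries (9.1%, against 14.2% of all genes tested) and 27 entirely below (40.9%, against 16.3%). HF28600 fell from 83.6, 111 and 90.5 to 11.7, 26.6 and 15.3 FPKM and HF00545 rose from 22.2, 33.9 and 27.2 to 107, 73.95 and 103 FPKM (adjusted p = 0.0422 and 0.0418). A newly assembled member on chromosome 4, 29863404 to 29865477 fell from 4.65, 4.12 and 3.13 to 0, 0.444 and 0.328 FPKM (adjusted p = 0.0292). Without LS replicate 2, the counts for this family were 4 rises (2.04% of all genes tested) and 13 falls (3.26%). Lipid transfer proteins, which carry lipids to the surface and are abundant in young anthers, summed to 5797, 5423 and 4505 FPKM in ES and 1292, 3200.0 and 1933 in LS, with no overlap. HF42802 fell from 351, 362 and 376 to 134, 141 and 139 FPKM (-1.39 ± 0.13, adjusted p = 0.0288). HF17233 fell from 156, 136 and 159.7 to 63.4, 57.99 and 53.4 FPKM, while HF13943 rose from 0.438, 0.349 and 1.06 to 40, 13.5 and 14.6 FPKM (adjusted p = 0.0288 and 0.0397). The most abundant member, HF37902, was at 2894, 1819.8 and 1792 FPKM in ES and 129.5, 1091 and 488 in LS and did not pass the test (adjusted p = 0.177).

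Families of sugar use and sugar transport held 3 falls and 1 rise, and the aquaporins none. Calls over all genes tested were 0.57% lower and 0.394% higher. Family 32 invertases split sucrose for use by the importing cell. They summed to 1101, 722 and 691 FPKM in ES and 264, 279 and 390.0 in LS, without overlap. The most abundant member, HF36409, is a gene model that also carries oxygenase (2OG-Fe(II)) and pentatricopeptide repeat domains. It was at 444, 508 and 302 FPKM in ES and 5.63, 74.9 and 125 in LS (adjusted p = 0.165). The sum is therefore not of invertases alone. Of the 6 genes tested, HF25654 fell, from 52.1, 27.1 and 40.7 to 3.26, 6.39 and 3.28 FPKM (-2.95 ± 0.33, adjusted p = 0.0362). The SWEET transporters, which release sugars from cells, had 1 fall, HF43144, at 14.8, 5.72 and 10.8 FPKM in ES and 0.567, 1.21 and 0.456 in LS (adjusted p = 0.0484). HF37337, a beta-amylase family member, fell from 5.92, 3.22 and 4.02 to 0.644, 0.256 and 0.441 FPKM (adjusted p = 0.0391), and the sugar transporter HF36431 above was the only call among 89 members of its family. Aquaporins, the water channels, had no call and 15 genes at an unadjusted p under 0.05 (6873 of 29660 over all genes tested). However, of their genes 2 of 31 lay entirely above and 16 entirely below the ES libraries (51.6% below, against 16.3% of all genes tested), and their sums were 5092, 5533 and 4700.5 FPKM in ES and 3283, 4526 and 4346 in LS. The dehydrin HF10521, from a family that binds water and membranes in drying cells, was at 1.05, 0.893 and 1.54 FPKM in ES and at 0 in all LS libraries (adjusted p = 0.0362). Against a floor of 3 fragments per library it was at least 4.95-fold lower. The most abundant dehydrin, HF20951, was at 3999, 2477 and 4001 FPKM in ES and 3380, 2521 and 3541 in LS (adjusted p = 0.942). The dehydrins summed to 4714, 3177 and 4775 FPKM in ES and 4130, 2884 and 4024 in LS, with overlap. Of the 7 tested, 0 lay entirely above the ES libraries (14.2% of all genes tested) and 4 entirely below (57.1%, against 16.3%).

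Kinesins, motor proteins of the cell division apparatus and of transport along microtubules, had no call and 32 genes at an unadjusted p under 0.05, while 2 of 90 lay entirely above the ES libraries (2.2%, against 14.2% of all genes tested) and 32 entirely below (35.6%, against 16.3%). They summed to 745, 656 and 631 FPKM in ES and 425, 475 and 448 in LS. Without LS replicate 2, 6 kinesins were lower (3.26% of all genes tested) and none higher (2.04%). Cyclins (53 tested) and MCM replication proteins (19 tested) had no call, and MCM proteins had no member without overlap. An unadjusted p under 0.05 was found in 9 cyclins and 2 MCM proteins. The shares over all genes tested were 0.964% called and 6873 of 29660 at an unadjusted p under 0.05. Among core histones, HF02874 fell from 73.97, 64.02 and 56.5 to 21.99, 30.7 and 20.8 FPKM (adjusted p = 0.0476). Ribosomal proteins, with 425 members, had 1 fall, where 0.57% of all genes tested were called lower. The mitochondrial HF03432 was at 109, 102 and 85.4 FPKM in ES and 33.5, 44.1 and 35.8 in LS (adjusted p = 0.0365).

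**Figure D3:**
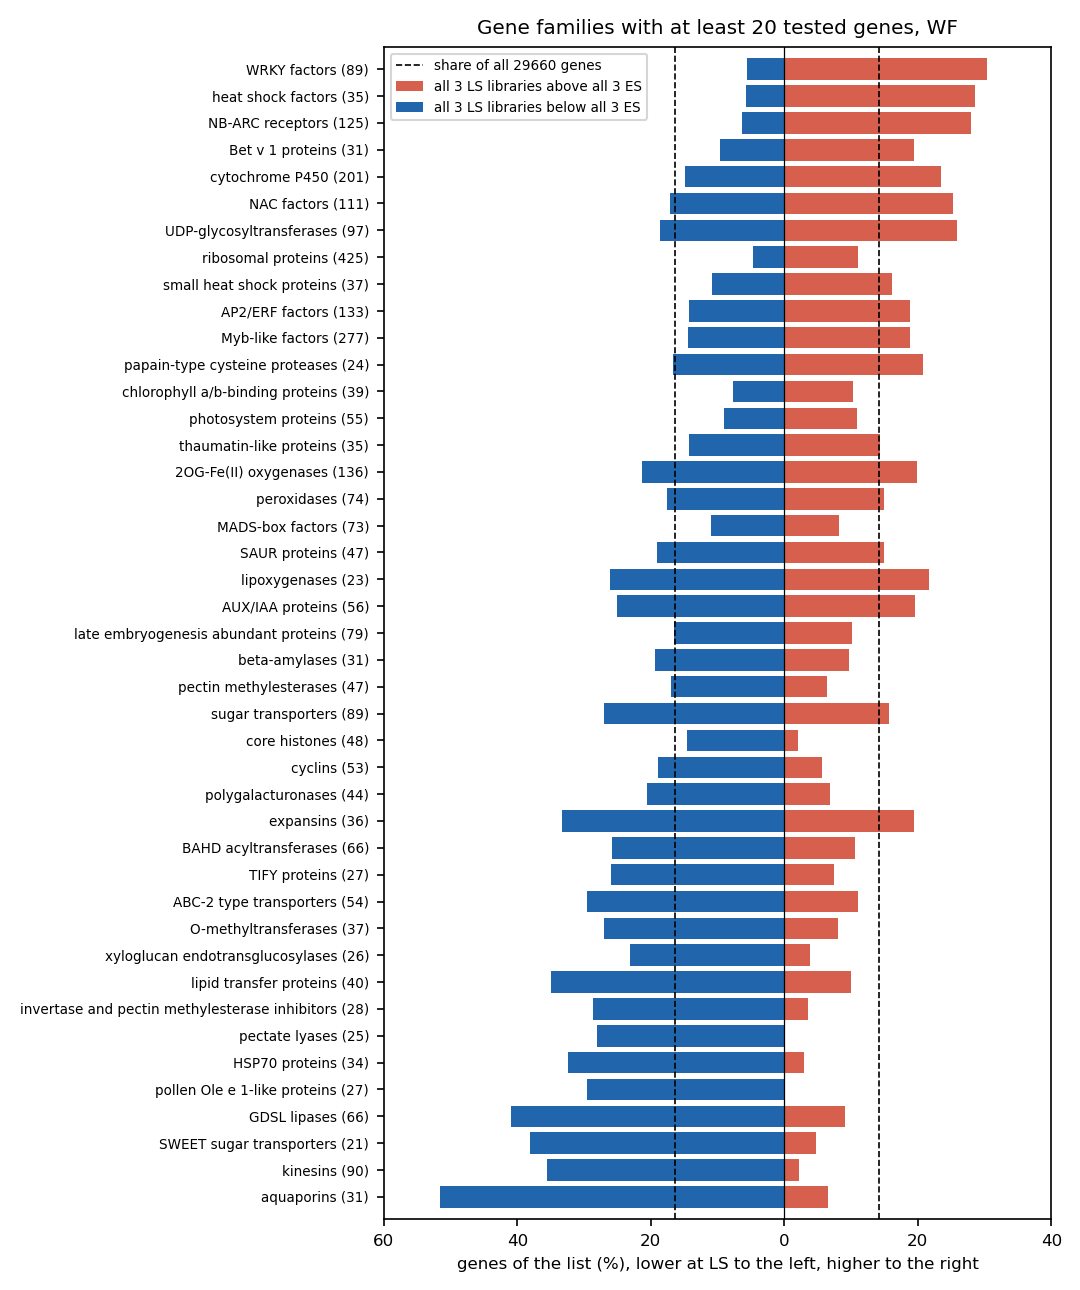
Share of tested genes (%) in each family of at least 20 whose 3 LS libraries lay entirely above (red, right) or entirely below (blue, left) the 3 ES libraries, with the number tested in brackets. Dashed lines mark the shares of all 29660 genes, 14.2% above and 16.3% below. WRKY factors extend farthest to the right (30.3%) and aquaporins farthest to the left (51.6%).

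Cytochromes P450, which oxidise hormones, pigments and defence compounds, had 8 rises and 2 falls in 201 genes tested, where 0.394% of all genes tested were called higher and 0.57% lower. Of the 201 genes, 47 lay entirely above the ES libraries (23.4%, against 14.2% of all genes tested) and 30 entirely below (14.9%, against 16.3%). The smallest adjusted p belonged to HF13397 and HF13401, which lie near each other on chromosome 15 (2357137 to 2358829 and 2306069 to 2312099). HF13397 rose from 1.52, 1.54 and 1.397 to 10.99, 12.03 and 14.3 FPKM (2.43 ± 0.16, adjusted p = 0.0191), and HF13401 from 0.856, 0.942 and 1.12 to 10.5, 7.595 and 9.002 FPKM (2.34 ± 0.18, adjusted p = 0.0216). The 2-oxoglutarate-dependent (2OG-Fe(II)) oxygenases, many of which act in hormone and flavonoid metabolism, had 5 rises and 2 falls in 136 genes. Those with the smallest adjusted p were expressed at low levels. HF36408 rose from 0, 0 and 0.0963 to 2.24, 3.15 and 1.78 FPKM, and a newly assembled gene on chromosome 3, 14184984 to 14186688 rose from 0.0313, 0.0312 and 0.152 to 1.157, 1.66 and 1.06 FPKM (adjusted p = 0.0288 and 0.0365). HF32721 went from 1.79, 1.15 and 1.29 FPKM to 0 in all LS libraries, at least 20.9-fold lower against a floor of 3 fragments per library (adjusted p = 0.0288).

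Peroxidases, which act on walls and lignin, had 3 rises and 1 fall in 74 genes. Of these, 11 lay entirely above the ES libraries (14.9%, against 14.2% of all genes tested) and 13 entirely below (17.6%, against 16.3%). Calls over all genes tested were 0.394% higher and 0.57% lower, which also applies to the families below. HF29423 rose from 13.5, 11.02 and 7.73 to 58.4, 60.1 and 48.2 FPKM and HF27337 from 50.02, 54.5 and 59.8 to 137, 226 and 166 FPKM, whereas HF39730 fell from 11.4, 8.87 and 11.8 to 2.77, 2.3 and 2.01 FPKM (adjusted p = 0.0288, 0.0422 and 0.0306). UDP-glycosyltransferases had 1 rise (HF40221, above) and 1 fall in 97 genes. The fall was that of HF35954, from 34.1, 27.96 and 25.8 to 5.64, 8.21 and 9.71 FPKM (adjusted p = 0.04). The papain-type cysteine protease HF19024, of a family known from protein breakdown in ageing petals, rose from 52.3, 37.6 and 52.5 to 229, 288 and 174 FPKM (2.24 ± 0.24, adjusted p = 0.0318), the only call among 24 members. HF42954, an ABC transporter, rose from 0, 0.0961 and 0.117 to 6.03, 3.73 and 2.85 FPKM (adjusted p = 0.0318). One chalcone isomerase, HF28154, fell from 1.37, 1.06 and 1.601 to 0, 0.268 and 0.222 FPKM (adjusted p = 0.0484), with no call and no unadjusted p under 0.05 among chalcone synthases.

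Regulators moved in both directions. Heat shock factors had 2 rises (0.394% of all genes tested) and no fall (0.57%) in 35 genes. Of these, 10 lay entirely above the ES libraries (28.6%, against 14.2% of all genes tested) and 2 entirely below (5.7%, against 16.3%). Besides HF27430, the most abundant member HF31362 rose from 23.1, 12.7 and 28.3 to 402, 283 and 159.9 FPKM (3.63 ± 0.43, adjusted p = 0.0381). The family summed to 413, 349 and 458 FPKM in ES and 1137, 845 and 723 in LS. No call was made in 37 small heat shock proteins and in 34 HSP70 proteins, with 8 and 7 genes at an unadjusted p under 0.05, where 0.964% of all genes tested were called. The small heat shock proteins summed to 201, 242 and 223 FPKM in ES and 405, 275 and 323 in LS, without overlap. However, their median log2 difference was -0.033. Of the 37, 6 lay entirely above the ES libraries (16.2%, against 14.2% of all genes tested) and 4 entirely below (10.8%, against 16.3%). Of the 34 HSP70 proteins, 1 lay entirely above (2.9%) and 11 entirely below (32.4%). Myb-like factors had 4 rises and 1 fall in 277 genes. HF04501 rose from 2.87, 3.71 and 1.45 to 32.7, 36.8 and 28.8 FPKM, a newly assembled gene on chromosome 10, 9629297 to 9630389 rose from 0.917, 0.685 and 0.139 to 13.01, 12.1 and 9.2 FPKM, and HF31680 fell from 85.2, 92.8 and 71.1 to 21.04, 17.2 and 25.4 FPKM (adjusted p = 0.0274, 0.0285 and 0.0288). AP2/ERF factors, which include the ethylene response factors, had 0 rises and 2 falls in 133 genes. Of these, 25 lay entirely above the ES libraries (18.8%, against 14.2% of all genes tested) and 19 entirely below (14.3%, against 16.3%). The median log2 difference of the family was 0.052. HF30421 fell from 19.04, 19.8 and 15.7 to 0.271, 1.72 and 0.682 FPKM and HF02343 from 1.29, 1.404 and 1.36 to 0.0451, 0.175 and 0.272 FPKM (adjusted p = 0.0288 and 0.0288).

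NAC, WRKY and EIN3 factors had no call at an adjusted p under 0.05 in 111, 89 and 6 genes (limma). An unadjusted p under 0.05 was found in 39, 28 and 2 genes. Over all genes tested, 0.964% were called and 6873 of 29660 had an unadjusted p under 0.05. Among WRKY factors 27 of 89 lay entirely above and 5 entirely below the ES libraries, a share of 30.3% above against 14.2% of all genes tested, and the median log2 difference was 0.41. Among NAC factors 28 of 111 lay entirely above the ES libraries (25.2%) and 19 entirely below (17.1%, against 16.3% of all genes tested). The NAC factors summed to 1908, 1475 and 1708 FPKM in ES and 6343, 2192 and 3159 in LS, with LS replicate 1 far above the others. EIN3 factors, which act at the end of ethylene signalling, lay above ES in 4 of 6 genes (14.2% of all genes tested) and below in none. Without LS replicate 2, 4 WRKY and 6 NAC factors were called higher (2.04% of all genes tested), and no EIN3 factor was called. In a fit of all 3 stages of WF, 14 WRKY and 13 NAC factors were higher (3.47% of all genes tested), and 0 WRKY and 5 NAC factors lower (5.33%).

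Auxin and jasmonate signalling genes were called in both directions, where 0.394% of all genes tested were called higher and 0.57% lower. Of 56 AUX/IAA repressors, HF28570 rose from 15.7, 17.1 and 18.5 to 76.8, 54.4 and 53.7 FPKM and HF26320 fell from 18.6, 12.8 and 7.91 to 1.91, 1.78 and 1.84 FPKM (adjusted p = 0.0288 and 0.0484). The SAUR protein HF12511, of a family of early auxin response genes, rose from 1.93, 1.25 and 0.7002 to 9.098, 7.53 and 7.78 FPKM (adjusted p = 0.0376). HF19051 carries the TIFY and CCT motifs of jasmonate repressors. It fell from 98.2, 87.3 and 162 to 17.4, 9.48 and 20.4 FPKM (-2.81 ± 0.36, adjusted p = 0.0423), the only call in 27 TIFY genes, while the allene oxide cyclase HF33514 fell as given above.

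Proteins of the Bet v 1 family are small ligand-binding proteins that include a major apple allergen. Their summed expression was 1579.7, 2697 and 3793 FPKM in the ES libraries and 27634, 22031 and 21399 in the LS libraries, and 2482, 2076 and 2336 at EB. At LS most of this came from HF43099 (chromosome 13, 12556737 to 12557421), at 747, 1373 and 1535 FPKM in ES and 20257, 13736 and 14174 in LS, and from HF26542 (chromosome 16, 12744086 to 12744736), at 354, 562 and 754 FPKM in ES and 5893, 5339 and 5853 in LS. The mean of HF43099 ranked 27 among all genes tested at ES and 2 at LS. These genes were chosen for their levels after the values were seen. Their groups did not overlap, but the log2 differences of 3.76 ± 1.03 and 3.42 ± 0.53 had adjusted p values of 0.1198 and 0.05597. Across the alternatives these ranged from 1.11e-07 to 0.4096 and from 2.18e-08 to 0.224. The only member called among 31 tested was the much less abundant HF26538 (chromosome 16, 12696411 to 12697004), which lies near HF26542. It rose from 0.0915, 0.364 and 0.222 to 7.85, 10.2 and 8.69 FPKM (3.01 ± 0.17, adjusted p = 0.0191). Members of this family can be near-identical copies, and how shared fragments were assigned is not given in the sources used here. NB-ARC receptors of the immune system had no call in 125 genes (0.964% of all genes tested). An unadjusted p under 0.05 was found in 28, against 6873 of the 29660 genes tested. Of the 125, 35 lay entirely above the ES libraries (28% against 14.2% of all genes tested) and 8 entirely below (6.4%, against 16.3%). Of the thaumatin-like proteins, HF31012 fell from 3.74, 2.94 and 3.34 to 0.321, 0.573 and 0.269 FPKM (adjusted p = 0.0285).

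**Figure D4:**
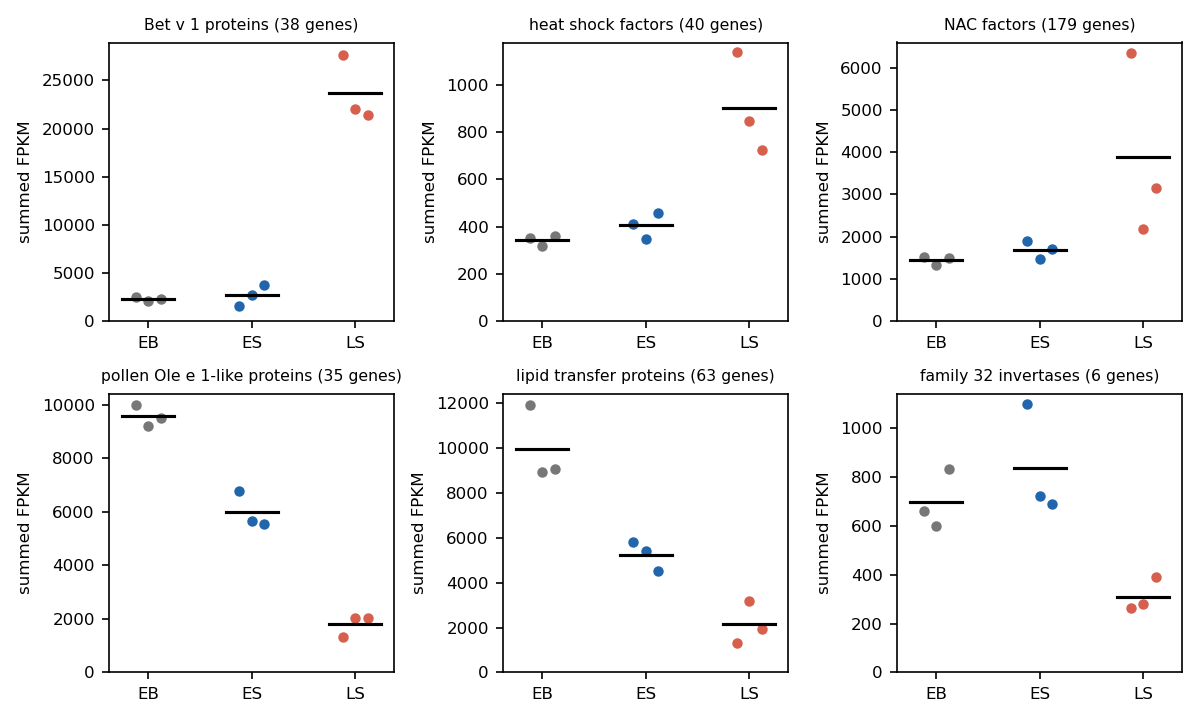
Summed FPKM of 6 gene families in the 9 WF libraries at EB, ES and LS, each point 1 library and each bar the group mean, on axes that start at 0. Bet v 1 proteins go from 1579.7 to 3793 FPKM at ES to 21399 to 27634 at LS, and pollen Ole e 1-like proteins from 5533 to 6779 down to 1335 to 2041. The invertase sum includes HF36409, a gene model that also carries domains of other families.

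Of 43 scent genes that the study lists by enzyme step, 42 were tested. HF12047, a lipoxygenase of the fatty acid route, was the only one called. It fell from 4.404, 5.44 and 3.31 to 0.3299, 0.161 and 0 FPKM (-2.20 ± 0.20, adjusted p = 0.0288). A lipoxygenase outside that list, HF13896, rose from 1.097, 1.85 and 1.15 to 5.43, 6.02 and 6.29 FPKM (adjusted p = 0.0373), and the median over the 9 listed lipoxygenases was -0.0051. The LS libraries lay entirely below the ES libraries in 9 of the 42 genes (16.3% of all genes tested) and entirely above in 4 (14.2%). The carboxyl methyltransferase HF44215, listed for the methylation of acids to scent esters (BAMT), was at 93.1, 187 and 151 FPKM in ES and 36.8, 40.6 and 46.5 in LS. Its groups did not overlap and its log2 difference of -1.72 ± 0.27 had an adjusted p of 0.0566, with a range of 0.000881 to 0.174 over the alternatives. Among carboxyl methyltransferases outside the list, HF03438 fell from 2.24, 1.87 and 2.32 to 0.0386, 0.188 and 0.155 FPKM (adjusted p = 0.0216). The BAHD acyltransferases, the family of a listed acyltransferase, had 1 rise (HF19930, 7.77, 13.3 and 13.3 to 35.7, 39.9 and 35.4 FPKM) and 1 fall (HF06334, 6.13, 7.99 and 7.68 to 0.941, 1.37 and 1.97 FPKM) in 66 genes (adjusted p = 0.0474 and 0.0397). Calls over all genes tested were 0.394% higher and 0.57% lower.

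The most abundant listed gene of each other step did not pass the test. Anthranilate synthase HF23986 was at 51.3, 74.5 and 43.6 FPKM in ES and 5.26, 19.5 and 18.9 in LS (adjusted p = 0.106). Its gene model also carries peptidase and ubiquitin-binding domains, so these values may not be of anthranilate synthase alone. Phenylalanine ammonia-lyase HF24990 was at 491, 361 and 119.6 and 158, 143 and 197 FPKM (adjusted p = 0.443). In HF24990 ES replicate 3 lay below all LS libraries. The alcohol dehydrogenase HF31864 was set by 1 library, with 36.6, 11.3 and 512 FPKM in ES and 2.78, 3.65 and 3.51 in LS (adjusted p = 0.177). In the plastid route to terpenes, deoxyxylulose phosphate synthase HF22253 was at 99.1, 128 and 102 FPKM in ES and 24.2, 138 and 101 in LS (adjusted p = 0.585). The reductoisomerase HF09131 was at 128, 83.7 and 92.2 and 67.2, 65.3 and 62.1 FPKM (adjusted p = 0.135), and the last enzyme of the route, HF44085, at 176, 159 and 160.0 and 202, 172 and 194 FPKM (adjusted p = 0.401). The leading terpene synthase HF17844 was at 6.63, 6.83 and 3.83 FPKM in ES and 3.77, 29.8 and 1.26 in LS (adjusted p = 0.9805). Its LS replicate 2 was the highest of the 6 libraries and its LS replicate 3 the lowest. The remaining steps were hydroperoxide lyase (HF29363), acyltransferase (HF10162), EPSP synthase (HF27126), shikimate kinase (HF41090), the step labelled PAT (HF41323), HDS (HF06193), GPP synthase (HF18284) and a gene with no step given (HF31613). For these, log2 differences lay between -0.69 and 0.88, with adjusted p from 0.132 to 0.937.

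The same 286 genes were then examined in the SF and Mr libraries, which share no sample with WF. Of the 117 genes that rose in WF, 115 had a higher mean at LS than at ES in SF (48.5% of all genes tested), and the 3 LS libraries lay entirely above the 3 ES libraries in 97 of them (22.4% of all genes). In Mr the corresponding numbers were 101 (54.3%) and 32 (10.6%). Of the 169 genes that fell in WF, 159 were lower at LS in SF (51.1% of all genes) and 132 in Mr (45.2%), and the groups did not overlap in 131 (22.4%) and 53 (10.3%). The median log2 difference of the 117 genes was 1.99 in WF, where they had been chosen, 1.44 in SF and 0.30 in Mr. For the 169 genes it was -1.85, -1.55 and -0.36. SF LS replicate 1 and Mr LS replicate 2 held transcripts that were found in WF but hardly in the other libraries of their own material, at a median of 7.86% and 16.7% of the WF level. Without them, 117 and 101 of the 117 genes were higher at LS in SF and Mr, and 162 and 133 of the 169 were lower.

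**Figure D5:**
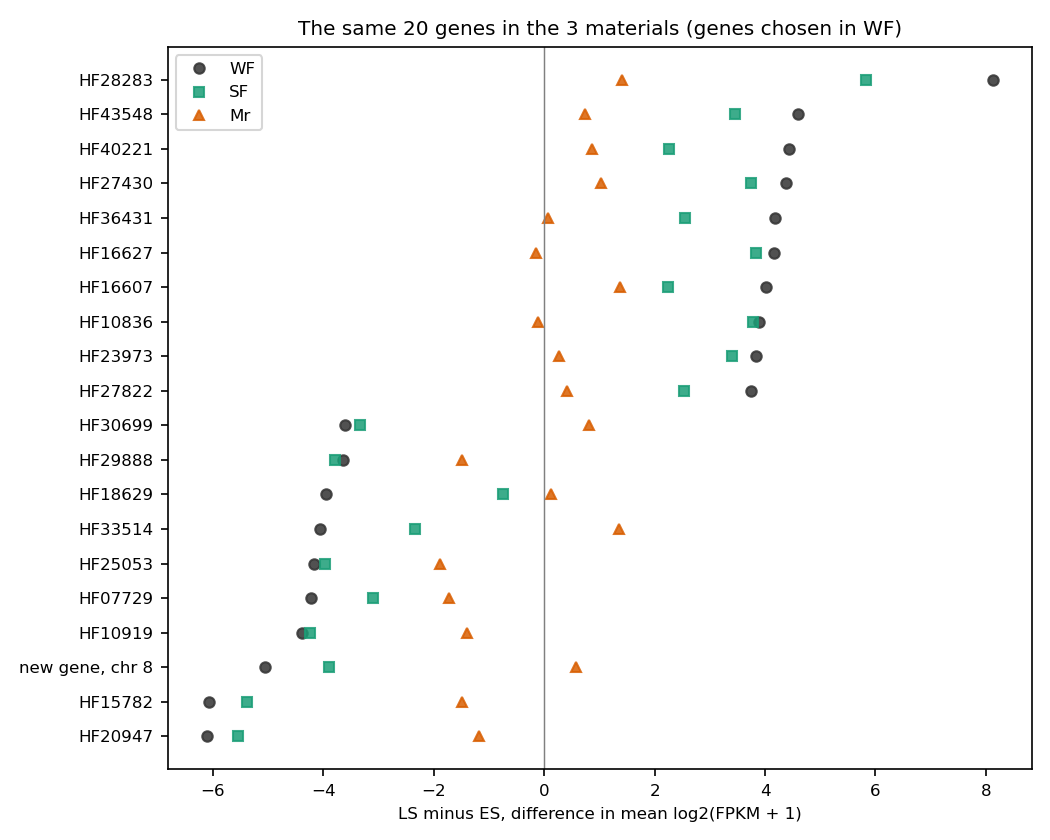
Difference between LS and ES in mean log2(FPKM + 1) for the 20 genes with the largest changes in WF, in WF (circles), SF (squares) and Mr (triangles). The genes were chosen on the WF values. For HF28283 the mean was 1.29 FPKM at ES and 847 at LS in WF, 3.36 and 307 in SF, and 0.709 and 3.58 in Mr.

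Whether the change from ES to LS itself differed between materials was tested as an interaction over 12 libraries. Between WF and Mr, 145 of 29660 genes differed (0.489%, limma), with 77 changing upward more in WF and 68 downward. The number was 30 without Mr LS replicate 2 and 2022 without WF LS replicate 2. It was 66 and 35 without Mr LS replicates 1 and 3, 20, 13 and 30 without Mr ES replicates 1, 2 and 3, and 24 and 71 without WF ES replicates 1 and 3. HF16627 had the smallest adjusted p. In Mr its ES libraries were at 8.26, 7.99 and 6.43 FPKM and its LS libraries at 8.501, 5.86 and 5.96, against the rise given above in WF (interaction 4.30 ± 0.27 on the log2 scale, adjusted p = 0.000538). The sugar transporter HF36431 stayed below 1 FPKM in Mr, with 0.105, 0.0848 and 0.102 in the ES and 0.287, 0.103 and 0.075 in the LS libraries (4.12, adjusted p = 0.00392), so a different change cannot be told apart from low expression in Mr. HF06730, a pentatricopeptide repeat protein of a family that edits and processes organelle RNA, rose in WF from 5.08, 5.704 and 5.58 to 49.3, 27.4 and 43.2 FPKM. In Mr it was at 12, 11.5 and 12.8 and 12.5, 10.7 and 9.84 FPKM (adjusted p of the interaction = 0.0107). HF40172, a ThiC enzyme of thiamine synthesis, fell in WF from 22.3, 27.1 and 21.4 to 8.45, 8.89 and 9.66 FPKM and was at 38.9, 33.4 and 38.1 and 48.2, 44.04 and 41.5 FPKM in Mr (adjusted p of the interaction = 0.0122). A newly assembled gene on chromosome 9, 13329638 to 13331773 fell in WF from 5.05, 4.57 and 4.04 to 0.135, 0.612 and 0.565 FPKM, against 1.22, 1.23 and 1.23 and 1.42, 1.89 and 1.303 in Mr (adjusted p of the interaction = 0.0122). Without Mr LS replicate 2 these 5 genes had adjusted p values of 0.00441 to 0.0374.

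Between WF and SF, 9 of 29660 genes differed in their change (0.0303%, limma), and 1811 had an unadjusted p under 0.05. The number was 0 without WF ES replicate 1, WF ES replicate 2 or SF LS replicate 2, 1 without WF LS replicate 1, and 4 without SF ES replicate 1, SF ES replicate 3 or SF LS replicate 3. Of the 5 genes with the smallest adjusted p, 4 were below 1 FPKM in all 6 libraries of 1 of the trees and passed the filter on low values through other libraries. For these 4, a different change cannot be told apart from a gene that is hardly expressed in 1 tree. The protein kinase HF25506 (chromosome 7, 30106808 to 30108713) fell in WF from 13.4, 10.1 and 8.697 to 0.413, 0.919 and 0.119 FPKM. In SF it was at 0, 0 and 0 and 0.185, 0 and 0 FPKM (interaction -3.08, adjusted p = 0.0138). A newly assembled gene on chromosome 3, 1318322 to 1318796 fell in WF from 3.63, 3.704 and 3.72 to 0, 0.492 and 0.203 FPKM and was at 0 in all 6 SF libraries (-1.95, adjusted p = 0.0138). A newly assembled gene on chromosome 2, 23494446 to 23502946, was at 0 in all 6 WF libraries and at 3.45, 2.37 and 3.02 and 0.483, 0.538 and 0.304 FPKM in SF (1.45, adjusted p = 0.0402). The cytochrome P450 HF08054 was at 0.126, 0.05004 and 0.122 and 0.4096, 0.106 and 0.192 FPKM in WF and at 2.05, 1.54 and 1.997 and 0.114, 0.175 and 0.231 in SF (1.45, adjusted p = 0.0402). The 2OG-Fe(II) oxygenase HF40244 (chromosome 3, 7005096 to 7008012) was at 400.1, 1014 and 411 FPKM in ES and 16.7, 64.03 and 29.1 in LS in WF, with an adjusted p of 0.05302 for WF alone. In SF it was at 3.39, 4.71 and 2.89 and 15.5, 10.98 and 10.2 FPKM (-5.58, adjusted p = 0.0438). Without SF LS replicate 1, HF25506 and the gene on chromosome 3 had an adjusted p of 0.0203 and the other 3 genes 0.0548 to 0.0691, while 9 genes in all were called.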

How the data were processed

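The series holds RNA-seq libraries of whole flowers from 3 materials (WF, SF, Mr) at 3 stages. FPKM for 48445 genes were deposited by the authors, who had aligned paired reads of 150 bp with HFTH1, an apple genome. StringTie 1.3.3b and DESeq2 1.16.1 are named in the submitters' processing notes. Names of an aligner or a counter are not given in the sources consulted, nor is strand-specific counting, so reads of overlapping antisense genes cannot be told apart. The gene lengths of the table were used only to recover fragments, and 98.12% of those of HF genes are multiples of 3, as coding lengths are.

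From the deposited FPKM, LS and ES in WF were compared in R 4.3.3 by limma 3.58.1, taking log2(FPKM + 1) of these 6 libraries alone and letting the prior variance follow mean expression. Genes reaching 1 FPKM in 3 or more of the 27 libraries were tested (29660), and an adjusted p under 0.05 at any fold change made a call, as in the study's own thresholds. A pseudocount of 1 understates the change of low genes. FPKM values were recovered as whole fragments (100% of 771147 values under 1000 fragments, within 0.05), and these were tested with limma voom as an alternative. The change was compared between WF and SF or Mr as an interaction over 12 libraries. Where a gene was at 0 in all LS libraries, a bound used 3 fragments per library. The alternatives were the pseudocount, filters, scaling, samples in the fit, trend, library weights, a replicate block, a fold threshold and each library left out. Summaries used numpy 2.4.6 and pandas 2.3.3 under Python 3.11.15, and plots matplotlib 3.10.9.

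Genes were named by rule: the 10 largest rises and falls among calls whose groups did not overlap, up to 3 calls with the smallest adjusted p in each of 61 families, the scent genes listed by the study, and the 5 genes with the smallest adjusted p in each interaction. Families are matches to the domain descriptions. The comparison, families and rules were chosen with earlier results of these data known. The search words of 3 families were narrowed after the descriptions were seen, without regard to values, and the most abundant members of some families were added after their values were seen. Sequences were not used here.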

Additional observations from a re-analysis of the deposited data

Results flagged for a closer look

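The change from ES to LS differed between WF and Mr in 145 genes and between WF and SF in 9 genes, by the limma interaction test. Against Mr, the 5 genes with the smallest adjusted p had interactions of 4.30 (HF16627), 4.12 (HF36431), 2.76 (HF06730), -1.57 (HF40172) and -2.15 (a newly assembled gene on chromosome 9) on the log2 scale. Against SF, they were -3.08 (HF25506), -1.95 (a newly assembled gene on chromosome 3), 1.45 (a newly assembled gene on chromosome 2, at 0 in all WF libraries), 1.45 (HF08054) and -5.58 (HF40244). These genes were picked out because the interaction passed the test. HF36431 was below 1 FPKM in all Mr libraries compared, HF25506 and the gene on chromosome 3 in those of SF, and HF08054 and the gene on chromosome 2 in those of WF. For these 5 genes a different change cannot be told apart from low or no expression in 1 material. The number of calls in both interactions moved with single libraries, as given with the comparisons.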

How the results depend on the processing

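The 286 calls in WF were 186 with a pseudocount of 0.1, 528 with the stricter filter, 137 with voom on recovered fragments, 2612 with all 3 WF stages in the fit, 7469 with all 9 groups in 1 fit and 15442 with library weights. Leaving out 1 library gave 0 to 1574 calls. The 9 calls against SF were 0 with a pseudocount of 0.1, the stricter filter or voom, 19 with no filter, 16 scaled by total fragments, 85 with all 9 groups and 359 with library weights, and 0 to 9 with 1 library left out. The 145 calls against Mr were 84 with a pseudocount of 0.1, 995 with all 9 groups and 11 with voom, and 13 to 2022 with 1 library left out. The causes of these changes were not tested. The 3 and 9 group fits also used the spread of other groups.

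With the replicate number as a block, the calls were 2 in WF, 0 against SF and 56 against Mr. The deviations of ES and LS libraries with the same number correlated at 0.24, 0.35 and -0.20. Those of libraries with different numbers correlated at -0.385 to 0.282. With 3 libraries per group, these values cannot decide whether the numbers pair the samples.

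All 70 named genes with an adjusted p under 0.05 kept their direction in every alternative that gave a value. They kept the call in 70 cases without LS replicate 2, with no filter and with 3 WF stages, in 47 with voom and in 42 with a pseudocount of 0.1. None kept it without ES replicate 1, ES replicate 3 or LS replicate 3. The largest adjusted p of each gene with 1 library left out lay between 0.113 and 0.173. Scaling by total fragments moved the median of all genes from -0.0056 to -0.045. Genes under about 1 FPKM at ES rest on few fragments, and their fold changes depend on the pseudocount.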

Other observations

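O-methyltransferases, which include enzymes of scent and lignin synthesis, summed to 1556, 1467 and 728 FPKM in the ES libraries of WF and to 339.7, 641 and 482 in the LS libraries, without overlap. None of 37 genes was called (limma), where 0.964% of all genes tested were called. Of the 37, 11 had an unadjusted p under 0.05, against 6873 of the 29660 genes tested. Of the 37, 3 lay entirely above the ES libraries (8.1%, against 14.2% of all genes tested) and 10 entirely below (27%, against 16.3%). The most abundant member, HF22635, was at 739.8, 541 and 196 FPKM in ES and 53.5, 261 and 108 in LS (adjusted p = 0.209), and at 81.3, 152 and 117 FPKM in the EB libraries. HF13510, the most abundant carboxyl methyltransferase, was at 701, 673 and 1041 FPKM in the EB libraries, at 2642, 2036 and 1349 in the ES libraries and at 418, 1019 and 772 in the LS libraries (adjusted p = 0.176 for LS against ES). In both genes LS replicate 2 was the highest of the LS libraries.

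Photosystem proteins summed to 2906, 4782 and 3405 FPKM in ES and 4596, 5572 and 4627 in LS, with no call in 55 genes and 8 at an unadjusted p under 0.05, and chlorophyll a/b-binding proteins had no call in 39 genes (5 at an unadjusted p under 0.05). Late embryogenesis abundant proteins (79 genes), inhibitors of invertases and pectin methylesterases (28), GH3 enzymes (12), senescence regulators (10), family 19 chitinases (11), PR-1 type proteins (9), carotenoid cleavage dioxygenases (9), terpene synthases (15), phenylalanine ammonia-lyases (6) and S1/P1 nucleases (4) also had no call. In the same order, 20, 6, 3, 2, 3, 1, 6, 1, 0 and 0 genes had an unadjusted p under 0.05. Over all genes tested, 0.964% were called and 6873 of 29660 had an unadjusted p under 0.05.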
